A study of Caenorhabditis elegans with 4 samples.

Results

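Groups of closely spaced EGL-27::GFP binding regions were examined in fed L1 larvae of Caenorhabditis elegans. The members were chosen by position alone: neighbouring regions on a chromosome were joined when the gap between them was at most 2000 bp, and a region was kept when its joined stretch held 3 or more regions. This rule kept 483 of 3728 listed regions (13.0%), in 132 stretches. The other 3245 regions stood alone (2525 regions) or in a pair (720 regions in 360 pairs). Start and end positions come from the same ChIP-against-input comparison as width and q-value. Every value below is therefore a description, and no test was made between regions inside and outside the stretches.

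EGL-27 resembles the vertebrate MTA proteins, nuclear factors that are subunits of the NuRD chromatin remodelling and histone deacetylase complex. In worms, egl-27 is known for its part in cell polarity, cell migration and the patterning of the body axis by Hox genes. A chromatin factor can be recovered at several places along one gene or intergenic stretch, and a caller then lists neighbouring regions in place of a single one. Chromosome centres in this nematode are gene-dense on the autosomes, while the arms hold more repeats.

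The labels give 4 libraries in 2 groups, with 2 of anti-GFP ChIP DNA and 2 of input DNA. All were from hermaphrodites of strain OP177, grown at 20 °C and crosslinked with 2% formaldehyde. The strain is an unc119(ed3) mutant with the bombarded transgene wgIs177, which carries egl-27 fused to TY1, EGFP and FLAG, together with a copy of unc119. The input libraries carry the same transgene. By a gene table of another build, used for chromosome names only, egl-27 lies on chromosome II and unc-119 on chromosome III. The authors' list joins all libraries, so no value per library and no error between replicates can be given. The depth behind each region is not stated, and the tag counts read from the q-values at the end rest on an assumption. Coordinates are those of the list, in WormBase WS180, and which genes lie there was not analysed here.

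Most stretches were short. There were 88 stretches of 3 regions, 23 of 4, 8 of 5, 9 of 6, 2 of 7, 1 of 8 and 1 of 11. The median stretch of 3 or more spanned 3226 bp (quartiles 2613 and 4228 bp). Its regions covered a median of 33.1% of that span, close to the 32.1% in the pairs. The median span was 2866 bp in stretches of 3, 4110 bp in stretches of 4, 5657 bp in stretches of 5 and 7905 bp in stretches of 6 or more. All 132 stretches together spanned 511879 bp, of which 189764 bp were covered by regions. They held 19.2% of all base pairs covered by the list, against their 13.0% of the regions, and 17.0% without the 11-region stretch.

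Inside stretches of 3 or more, 351 gaps separated neighbouring regions, with a median of 893 bp and quartiles of 527 and 1276 bp. In the pairs, which the same limit of 2000 bp defined, the 360 gaps had a median of 1005 bp and quartiles of 618 and 1421 bp. Gaps under 400 bp made up 18.8% of the gaps in stretches of 3 or more and 11.7% of those in pairs. The smallest gap of the whole list was 202 bp, so neighbours closer than that were never listed as separate regions. From midpoint to midpoint, members of one stretch were 1287 bp apart in the median.

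**Figure D1:**
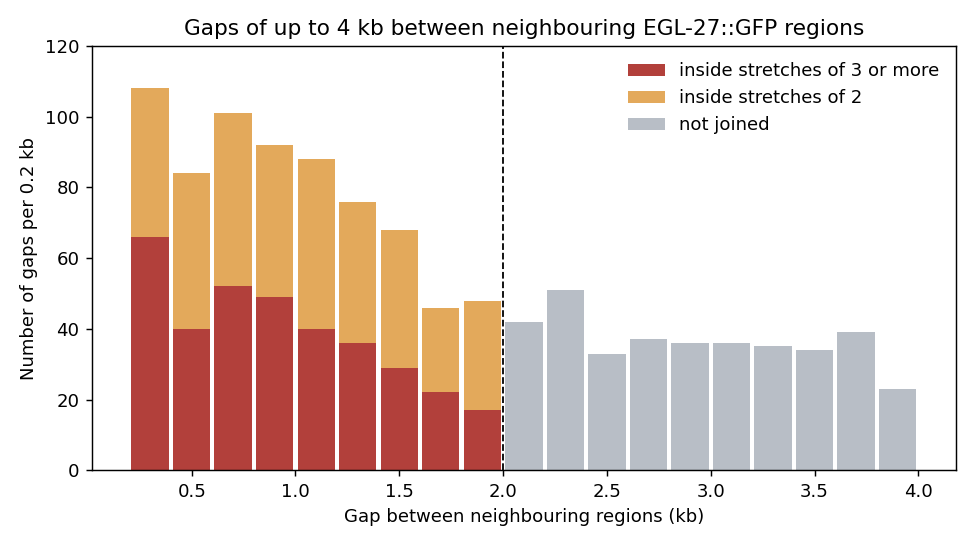
Gaps between neighbouring regions, in bins of 0.2 kb up to 4 kb, as stacked counts. Colours mark gaps inside stretches of 3 or more, gaps inside pairs and gaps that were not joined, and the dashed line is the limit of 2 kb. The bin from 200 to 400 bp holds 66 gaps of stretches of 3 or more and 42 of pairs, and counts fall towards 2 kb with no break at the limit.

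The limit of 2000 bp falls within this continuous range of gaps. Just inside it, V:10867657-10871808 was kept as a stretch of 3 through a gap of 1963 bp, with regions of 179, 521 and 468 bp and q-values of 7.10e-04, 4.61e-07 and 1.01e-12. IV:9440886-9445162 was kept through a gap of 1959 bp, with regions of 269, 425 and 745 bp. Just outside, I:2664179-2668042 missed by a gap of 2017 bp, with regions of 12, 96 and 92 bp and q-values of 0.00228, 6.58e-05 and 0.00410. I:7658321-7662424 missed by a gap of 2048 bp, with regions of 813, 169 and 511 bp.

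Regions in stretches of each size had a larger median width than regions standing alone or in pairs, with no steady rise beyond stretches of 5. The median width was 203 bp for regions standing alone, 232 bp in pairs and 271 bp in stretches of 3. It was 309 bp in stretches of 4, 369 bp in stretches of 5 and 324 bp in stretches of 6 or more, and the last fell to 302 bp without the 11-region stretch. Over all 483 members the median was 296 bp (quartiles 160 and 503 bp), against 209 bp (quartiles 105 and 334 bp) for the 3245 regions outside. Regions narrower than 50 bp made up 9.73% of the members (47 regions) and 15.2% of the others (492 regions). Regions of 1000 bp or more numbered 22 among the members (4.55%) and 26 among the others (0.801%), and 7 of those 22 lay in the 11-region stretch.

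**Figure D2:**
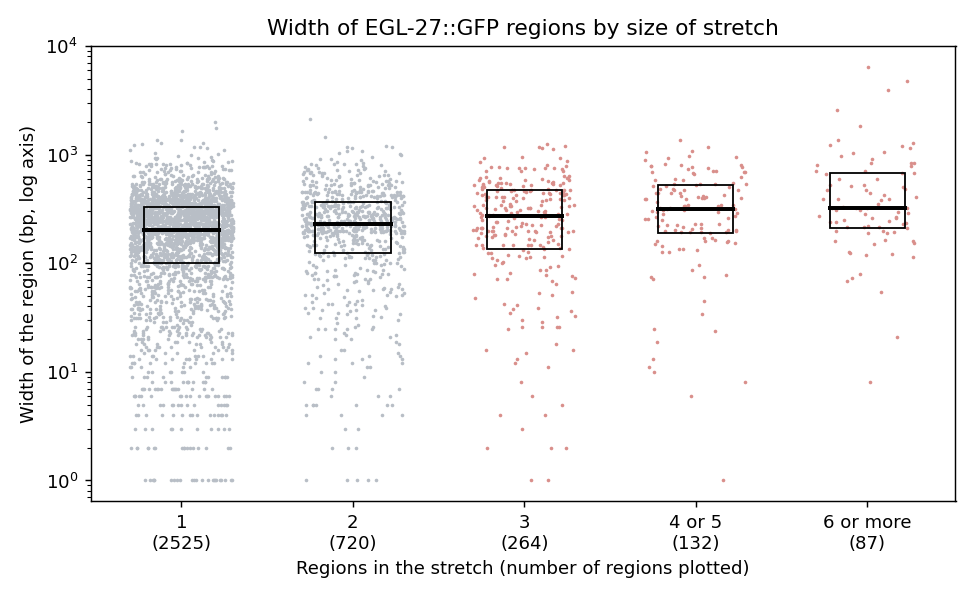
Width of each region in bp, on a log axis, by the number of regions in its stretch. Each point is a region, the box spans the quartiles and the thick line is the median. Medians are 203 bp for regions standing alone, 232 bp in pairs, 271 bp in stretches of 3, 317 bp in stretches of 4 or 5 and 324 bp in stretches of 6 or more (302 bp without the 11-region stretch), and the ranges of all classes overlap.

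The q-value given by the authors' caller, a p-value for ChIP over input corrected for the number of tests, was also smaller in the stretches. All listed regions had a q under 0.01. The median q was 3.69e-04 in the members, 7.89e-04 in pairs and 0.00122 in regions standing alone. Of the members, 283 (58.6%) had a q under 0.001, where 49.6% of all listed regions did. A q under 1e-05 was reached by 158 members (32.7%), against 20.0% of the list. It was under 1e-10 in 65 members (13.5%, against 5.98% of the list) and under 1e-20 in 22 members (4.55%, against 1.45%). These shares come from the contrast that chose the members and are printed for reference only.

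Wider regions had smaller q-values, inside and outside the stretches. Within the members, width and −log10 q had a Spearman correlation of 0.79 (483 regions), and outside them of 0.67 (3245 regions). All points share the same libraries and caller. In bands of q-value the members were still the wider ones, but q was not matched within a band. With q from 0.001 to 0.01 the median width was 159 bp in 200 members and 135 bp in 1680 other regions. With q from 1e-10 to 1e-05 it was 479 bp in 93 members and 398 bp in 429 other regions, and with q under 1e-10 it was 744 and 643 bp.

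Strong and weak regions stood side by side in the stretches. Of the 132 stretches, 44 held 2 or more regions with q under 1e-05, 51 held exactly 1 and 37 held none. In 13 stretches every region had a q of 0.001 or more, and in 2 every region was under 1e-05. The median of the smallest q in a stretch was 6.18e-08, and the median of the largest q was 0.00467. The region with the smallest q was also the widest in 98 stretches (74.2%). In 17 stretches the smallest q was under 1e-20. Among the 67 other regions of those stretches the median q was 2.10e-04, with 27 regions under 1e-05 and 27 at 0.001 or more.

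**Figure D3:**
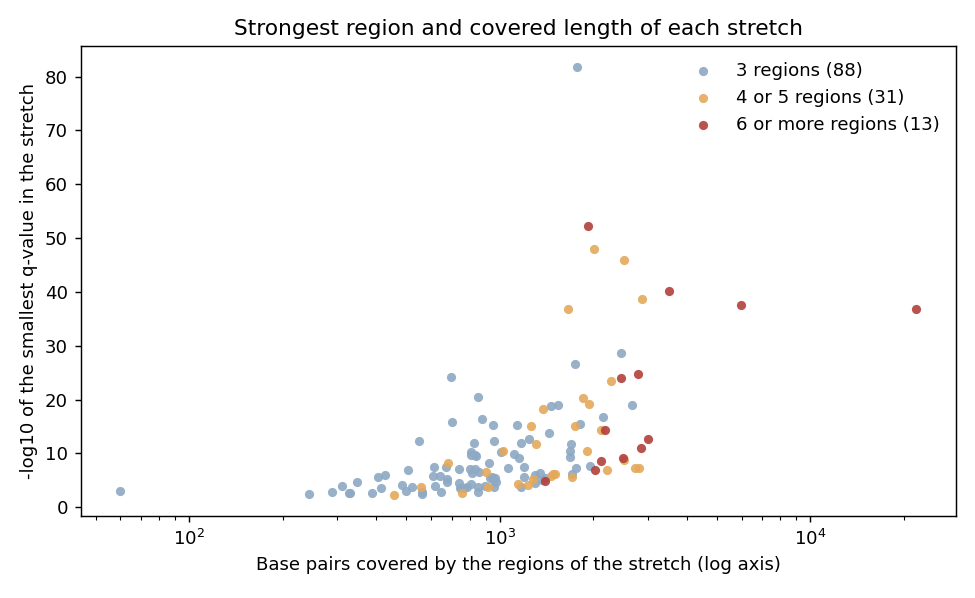
Each point is one of the 132 stretches, with the base pairs covered by its regions on a log axis and the −log10 of its smallest q-value. Colour gives the number of regions. The point at the far right is the 11-region stretch with 21831 bp covered, and the highest point is a stretch of 3 regions with 1778 bp covered.

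The strongest region of a stretch was found at any position in it. In the 88 stretches of 3, the smallest q belonged to the leftmost region in 25, the middle region in 32 and the rightmost in 31. The middle regions had a median width of 310 bp, against 209 bp for the leftmost and 279 bp for the rightmost. Over all stretches except the 11-region one, the 210 inner regions had a median width of 318 bp and the 262 end regions 271 bp, with median q-values of 2.81e-04 and 6.70e-04. Stretches of 3, whose regions were narrower than those of larger stretches, have more end than inner regions. Position and size of stretch are therefore mixed in these pooled values and were not separated.

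Of the leading 10 regions of the list by q-value, 7 lay in stretches of 3 or more. The first of all, X:11605379-11606501 (1123 bp, q = 1.95e-82), was the middle of 3 regions at X:11603314-11607580. Its neighbours were narrow and weak by comparison, with 311 bp and q = 9.96e-04 on the left and 344 bp and q = 0.00561 on the right. A contrast of the same kind was seen at III:4280714-4285036. There a region of 1051 bp with q = 1.16e-48 stood among regions of 229, 343 and 387 bp with q-values of 0.00265, 0.00186 and 1.27e-09.

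The stretch at III:1920955-1926844 had a more even makeup. Of its 5 regions, 4 had very small q-values, at 1.34e-46 (782 bp), 8.47e-24 (477 bp), 1.05e-32 (770 bp) and 4.75e-20 (411 bp) in order along the chromosome with a region of 74 bp and q = 6.56e-04 before the last. At II:11632635-11637355 the 4 regions measured 323, 750, 1367 and 427 bp, with q-values of 1.16e-07, 5.93e-11, 1.80e-39 and 0.00189. The remaining 3 of the 7 lay in stretches of 6 regions, described next.

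Stretches of 6 or more regions numbered 13, with 5 on X, 3 each on III and V, 2 on II and none on I or IV. The widest by far was II:6825715-6853622, which spanned 27908 bp with 11 regions and was 78.2% covered, the highest share of any stretch. In order, its regions measured 440, 796, 120, 1279, 3947, 4792, 6451, 1360, 1225, 392 and 1029 bp. The q-values followed no simple order with width. They were smallest in the regions of 6451 bp (1.70e-37) and 4792 bp (4.89e-32), but the region of 1225 bp had q = 0.00472 and that of 796 bp had q = 2.04e-11. Of its 10 gaps, 8 were 618 bp or shorter, and the longest was 1914 bp. On the reading of q-values as tag counts given at the end, 7 of its 11 regions (63.6%) had a ChIP to input ratio under 2. Of the regions outside stretches of 3 or more, 3.22% did. With few tags a region could pass the limit on q only at a higher ratio. The median region had 198 ChIP and 114 input tags in the 11-region stretch, and 41 and 14 outside. Both shares were therefore partly fixed by the number of tags. In regions of at least 200 bp, the median input of the 11-region stretch was 99.7 tags per kb, against 68.3 outside. Whether this stretch lies at egl-27, which the transgene also carries, was not tested.

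The next in number, II:14036757-14046603, was of another make. Its 8 regions covered 24.9% of 9847 bp, and 2 of them stood out, at 833 bp with q = 7.88e-25 and at 677 bp with q = 6.40e-11. The other 6 were 8 to 259 bp wide, with q-values from 8.23e-05 to 0.00896. Neither stretch of 7 regions had a region with q under 1e-10. At X:12869968-12878257 all regions were between 200 and 428 bp wide, with a smallest q of 2.27e-09. At V:13654091-13660667 they were 21 to 594 bp wide, with a smallest q of 1.41e-07.

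Among the stretches of 6 regions, X:6736215-6745716 was the most covered, at 63.0% of 9502 bp. Its regions measured 1836, 248, 2594, 598, 475 and 238 bp, with q-values of 6.79e-30, 0.00174, 2.66e-38, 5.86e-14, 4.58e-05 and 2.10e-04. At V:6224353-6233302 the regions of 912, 1143 and 971 bp had q-values of 8.02e-23, 7.11e-41 and 1.22e-13, and the other 3 were 68 to 291 bp wide with q from 6.74e-04 to 0.00255. At III:12611465-12617190 a single region of 665 bp had q = 4.86e-53, while the other 5 reached no lower than 3.57e-07. These 3 stretches hold the regions of the leading 10 announced above.

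The other 6 stretches of 6 regions had weaker leading regions. The smallest q was 2.10e-25 at X:14555473-14562884, 3.60e-15 at III:6359226-6364767 and 1.80e-13 at X:4137876-4145780. It was 1.10e-11 at III:9662443-9668362, 6.93e-10 at V:13081159-13090648 and 1.23e-05 at X:5208888-5216004. The last was also the least covered of the 13, at 19.6% of 7117 bp, with regions of 79 to 479 bp.

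**Figure D4:**
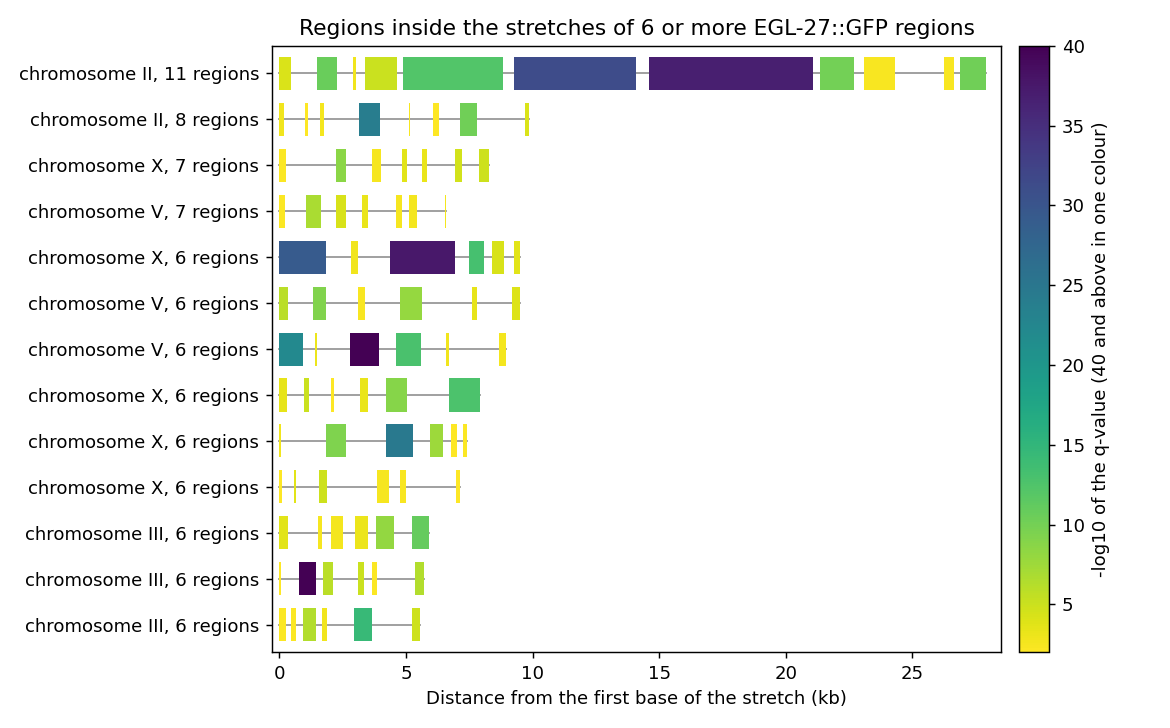
The 13 stretches of 6 or more regions drawn to scale from the first base of each, in kb, with a block for each region (blocks under 40 bp are drawn 40 bp wide) and a line for the gaps. Colour gives −log10 of the q-value. The 11-region stretch on II is about 28 kb long, and the other 12 span 5542 to 9847 bp.

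At the other end, some stretches were joined from narrow regions with q-values near the limit of the list. X:10666956-10667937 was 6.11% covered, with 3 regions of 3, 53 and 4 bp. The next lowest shares were 9.23% at II:10445723-10448853, 10.4% at II:8818354-8820683, 10.7% at III:13716133-13719219 and 11.0% at IV:15016996-15021144. No region in these 5 stretches had a q under 0.001. The highest shares after the 11-region stretch were 66.5% at X:16928178-16931882, 65.1% at III:7140053-7142676, 63.3% at II:5335500-5338587 and the 63.0% on X given above. In the first of these, regions of 1170 and 1167 bp lay 280 bp apart, with q-values of 2.18e-29 and 1.54e-15.

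Stretches were found on all 6 chromosomes, but in unlike numbers. X had 30, III and V 27 each, IV 20, II 17 and I 11. Per Mb of sequence up to the last listed base, III had 1.96 stretches, X 1.70, V 1.29, IV 1.14, II 1.11 and I 0.735. Chromosomes with more regions give more chances to join, so the share of each chromosome's own regions was also taken. It was 16.2% on X (118 of 729 regions), 15.1% on III (100 of 664), 14.1% on II (70 of 498), 14.0% on V (96 of 687), 10.8% on IV (65 of 601) and 6.19% on I (34 of 549). Without the 11-region stretch the share on II was 11.8%. Chromosome I was lowest on both measures. Its largest stretch, I:7082105-7084784, had 4 regions and a smallest q of 5.99e-07, and IV also had none above 4. Of the 5 stretches of 4 on IV, IV:4747520-4750203 had the smallest q, 4.98e-09.

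On every chromosome the members had a higher median width than the other regions. The difference was largest on II, with 392 against 207 bp, but without the 11-region stretch the members of II had a median of 289 bp and the difference on X was the largest. It was smallest on IV, with 257 against 228 bp. On X the medians were 332 and 240 bp, on I 309 and 237 bp, on III 273 and 200 bp, and on V 251 and 170 bp.

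Along the chromosomes the stretches were sparse at the left end. The central 33.3% of the chromosomes held 56 stretches (42.4%), the left 33.3% held 28 (21.2%) and the right 33.3% held 48 (36.4%), where left is the side of base 1. By regions, 43.1% of the members and 36.8% of the others lay in the central 33.3%. Among the others, the share was 40.6% for regions in pairs and 35.8% for regions standing alone. Without the largest stretch of all, on II, the share of the members was 41.7%, close to that of the pairs. The first 10% of the chromosomes held 17 members (3.52%) and 286 other regions (8.81%), and the last 10% held 56 members (11.6%) and 307 other regions (9.46%). On the autosomes 44.4% of the members and 38.6% of the other regions were central. On X these shares were 39.0% and 29.1%. Neighbouring regions are not independent, and 1 large stretch moves such shares by several regions at once. How these positions relate to gene density or to repeats was not tested.

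**Figure D5:**
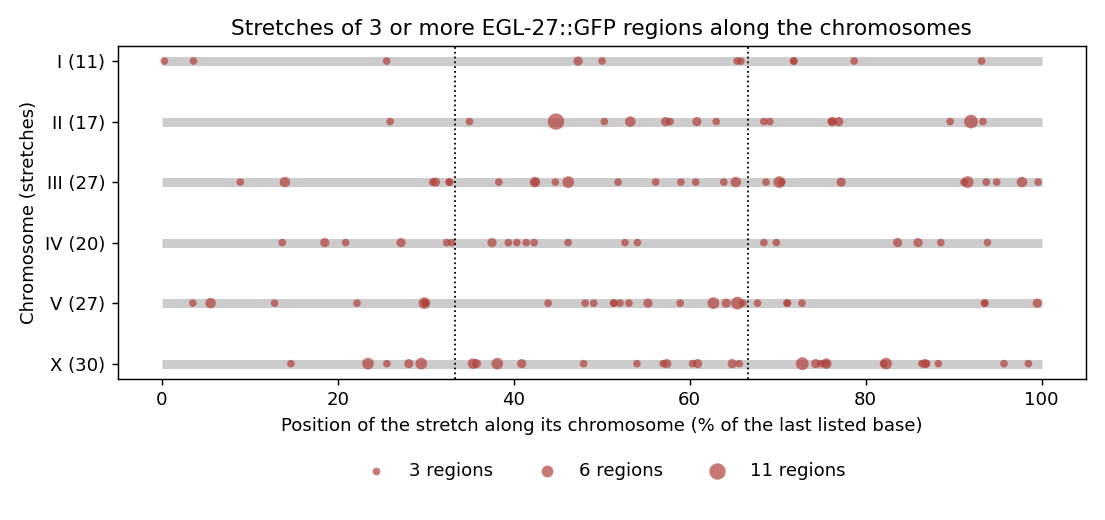
Position of the 132 stretches along each chromosome, as a percentage of the last listed base, with dotted lines at the borders of the central 33.3%. Larger points hold more regions. The number of stretches per chromosome goes from 11 on I to 30 on X, and few points lie in the first 20% of the axis, where 10 of the 132 stretches are found.

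Most stretches stood apart from one another. The median distance between neighbouring stretches on a chromosome was 415814 bp, and 14 of 126 such distances were 50 kb or less. With a limit of 10 kb, chosen after the values were seen, 15 stretches formed 7 groups. The largest of these, at V:6224353-6248901, combined the stretch of 6 described above with 2 stretches of 3, so that 12 regions lay in 24549 bp. Close pairs also lay at III:5836452-5846338 and X:13348311-13360086, each with 8 regions, and their stretches were 2626 and 2050 bp apart. The nearest region outside a stretch was a median of 6432 bp away, and for 56 of the 132 stretches it lay within 5 kb.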

How the data were processed

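The sources are 2 anti-GFP ChIP and 2 input libraries. Per the file headers, the authors called binding regions with PeakSeq on WormBase WS180 and deposited a single list with the q-value of each region. Aligner, depth, input scaling and caller settings were not given in the sources used here. Deposited first and last bases were used as given, counted from 1.

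Regions were sorted by chromosome and start and joined over gaps of up to 2000 bp with Python 3.11.15, pandas 2.3.3 and numpy 2.4.6. Joining was tested on simulated lists. Medians and shares were computed over regions or stretches. The last listed base stood for the length of a chromosome. No test was run, because positions, width and q-value come from one contrast. The members and all lists and groupings were chosen with earlier results of these data known. Stretches named are those of 6 or more regions, the one with the most regions on each chromosome (of ties, the one with the smallest q-value), those with 1 of the 10 smallest q-values, and the 5 most and 5 least covered. The examples next to the joining limit and the close groups of stretches were added after their values were seen. No genome of the build was used, so no sequence or gene is given for a region.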

Additional observations from a re-analysis of the deposited data

How the results depend on the processing

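Of 64 values recomputed, 28 moved and 36 did not, that is, a count changed by less than 1.5 times, or a median or share kept inside its 95% binomial interval, which takes regions or stretches as independent. In every setting members were wider and had a smaller median q than the other regions (such as 471 against 328 bp with q under 0.001).
Joining up to 1 kb gave 201 regions in 59 stretches, a median width of 341 bp, gap of 590 bp and span of 2662 bp, and 48.1% covered. Joining up to 4 kb gave 857 regions in 221 stretches, a gap of 1216 bp, a span of 4958 bp and 21.1% covered. Only regions with q under 0.001 gave 135 regions in 39 stretches, a width of 471 bp, a span of 3699 bp, 42.7% covered, a median q of 2.79e-06 and 53.8% of stretches central. Without regions under 50 bp, the width was 333 bp, the share covered 35.7% and the median q 1.95e-04. With neighbours within 500 bp merged, the gap was 1021.5 bp and the span 3547 bp. Stretches of 4 or more numbered 44, with 219 regions, a span of 5049 bp and 34.1% on X. The central 50% held 65.9% of stretches. Leaving out the 11-region stretch moved none of the 9 results, but removing 11 of 483 regions left little room for a move under these limits. Values outside the 9 did change, such as regions of 1000 bp or more (22 to 15) and the share of covered base pairs (19.2% to 17.0%). These moves follow partly from the construction of each setting, and other causes were not tested. No paired analysis was possible because this list has no value per library, and for the same reason no replicate could be left out. The unstated depth limits what can be said of narrow regions.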

Other observations

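The q-values of the list have a regular form that gives a size of enrichment for most members. The product of q-value and line number was compared with binomial lower tails (share 0.5) multiplied by a whole number, the number of tested regions. Taking that number as 6924, all 101 levels that recurred in at least 8 regions matched within a relative tolerance of 1e-08, and the next best number between 3728 and 20000 matched 1. A single pair of whole numbers then fitted 3708 of 3728 regions, 481 of the members among them. The sources used here do not state this form, so reading the pairs as ChIP tags and scaled input tags is an assumption.

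On that reading the members held more tags, with a median ratio of ChIP to input close to that of the other regions; no test was made. The median member had 52 ChIP and 19 input tags, against 41 and 14 in the 3227 other regions. The median ratio of ChIP to input was 2.91 in the members (quartiles 2.44 and 3.67) and 3.0 in the others (quartiles 2.54 and 3.72). A region with fewer tags needed a higher ratio to pass the limit on q, so both medians were partly fixed by the list. Their closeness therefore does not show equal enrichment. In regions of at least 200 bp, input tags per kb had a median of 64.7 in the members and 68.3 in the others.

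The stretches differed among themselves. In 130 stretches all regions had a single pair, and the ratio of their summed tags had a median of 2.97 (quartiles 2.57 and 3.54). The highest was 6.72 at III:1920955-1926844, followed by 5.54 at X:11603314-11607580 and 5.21 at III:12611465-12617190. Those under 2 were the 11-region stretch, with 1.81, and X:10146489-10151364, a stretch of 4 regions with 1.98. These had 110.3 and 98.7 input tags per kb of region, against a median of 66.4 over the 130 stretches. An input per kb above 98.7 was also found at higher ratios, in 4 stretches of narrow regions with few tags. With few tags a region could pass the limit on q only at a high ratio, so these ratios were partly fixed by the list. Input per kb was 283.3 at X:10666956-10667937 (17 input tags over 60 bp, ratio 3.94) and 123.5 at II:8818354-8820683 (30 tags over 243 bp, 2.73). It was 118.5 at III:13716133-13719219 (39 tags over 329 bp, 2.49) and 100.3 at II:10445723-10448853 (29 tags over 289 bp, 2.90). These stretches include regions under 200 bp, which the medians per kb of members and others left out. Over so few base pairs, input per kb is a poor measure to set beside that of the 11-region stretch. Values below 98.7 but above the median were also found at higher ratios over more base pairs. Examples are 96.9 at IV:4747520-4750203 (66 tags over 681 bp, 3.11) and 85.9 at X:10765950-10768763 (142 tags over 1654 bp, 3.45).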
